A study of Mus musculus with 6 samples.

Results

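Cytokines and chemokines are the secreted signals of inflammation, and the genes described here encode these ligands, their receptors, and the adaptors, kinases and transcription factors of the NF-kB pathway that many of them act through. The members were chosen by symbol from the whole table: chemokines and chemokine receptors, interleukins and their receptors, members of the tumour necrosis factor (TNF) ligand and receptor superfamilies, TNF-induced proteins, TRAF adaptors, IkB kinases, IkB proteins, NF-kB subunits, the gp130 receptor group, colony stimulating factor 1 (CSF1) with its receptor, and the prostaglandin synthases. The rule found 100 of the 16472 genes in the authors' deposited table, and 82 of them carried an adjusted p. HT22 cells are an immortalised line from mouse hippocampus that serves as a neuron model. The AA147 group had 3 libraries from HT22 cultures treated for 16 h with AA147, a compound that activates ATF6, a transcription factor of the endoplasmic reticulum stress response, at a labelled dose of 10 mM. The vehicle group had 3 libraries from HT22 cultures given DMSO for the same 16 h. All cultures were grown in serum-containing medium, and the labels name no added cytokine or other inflammatory stimulus. The comparison asked which of these transcripts differed between AA147 and vehicle.

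All levels, fold changes, standard errors (SE) and p-values below come from the authors' deposited table or were computed from it. That table gives 1 line per gene from DESeq2, with a mean normalized count over the 6 libraries and no value for a single library. The table does not name the numerator of its fold change. It was read as AA147 over vehicle, and every "rose", "fell", "higher" and "lower" below depends on that reading. Group averages were implied from the mean and the fold change under equal weight of the 3 libraries per group. They carry no SD of their own, so whether single libraries of the groups overlapped could not be seen. A gene was called when its adjusted p was under 0.05, and intervals are 95% intervals, the log2 fold change plus and minus the normal multiple of the authors' SE. Separate cultures behind the libraries are not stated in the labels, so the p-values measure the spread between these libraries, which may be technical. Fewer cells of a type and less RNA per cell cannot be told apart in such bulk samples.

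As background, interleukin 6, interleukin 11, oncostatin M and leukaemia inhibitory factor bind private receptor chains that pair with the shared chain gp130 and signal through JAK kinases and STAT factors. Interleukin 1 and TNF receptors recruit TRAF adaptors and ubiquitin ligases, which bring in the IkB kinase complex. That kinase marks the IkB proteins for destruction and frees NF-kB dimers, whose targets include many chemokines, adhesion molecules and the inhibitors themselves. In the brain, these signals pass between neurons, glia and immune cells.

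AA147 libraries had lower transcript levels of the gp130 receptors, of the growth factor Csf1 and of the chemokines Ccl5 and Ccl9, and higher levels of the interleukin 33 receptor gene Il1rl1, of the inducible prostaglandin synthase Ptgs2 and of the decoy receptors Tnfrsf22 and Tnfrsf23. The core of the NF-kB pathway moved little: no IkB kinase or NF-kB subunit changed by as much as 0.5 on the log2 scale other than Ikbkg, which overlaps another gene. Of the 82 members with an adjusted p, 28 were called (34.1%), beside 20.2% of the 13597 genes with an adjusted p in the table. The 10 positive calls were 12.2% of the members and the 18 negative calls 22%, beside 9.05% and 11.1% of all genes tested. Among genes with a mean of at least 100, where the test has more reads to work with, 25 of 60 members were called (41.7%), beside 23.8% of all such genes. The median log2 fold change was -0.05 over the members and 0.01 over all genes tested, a shift of the set as a whole that is small beside its single changes. With the 26 members left out that share exons or long near-identical sequence with another gene of the table, 21 of 56 were called, 5 positive and 16 negative. Most called changes were moderate: 5 of the 28 reached a log2 fold change of 1 in size, 8 were under 0.5, and the median size was 0.67. The members held 0.357% of the summed means of the table, and Csf1 with Il6st held 21.0% of the members' sum.

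**Figure D1:**
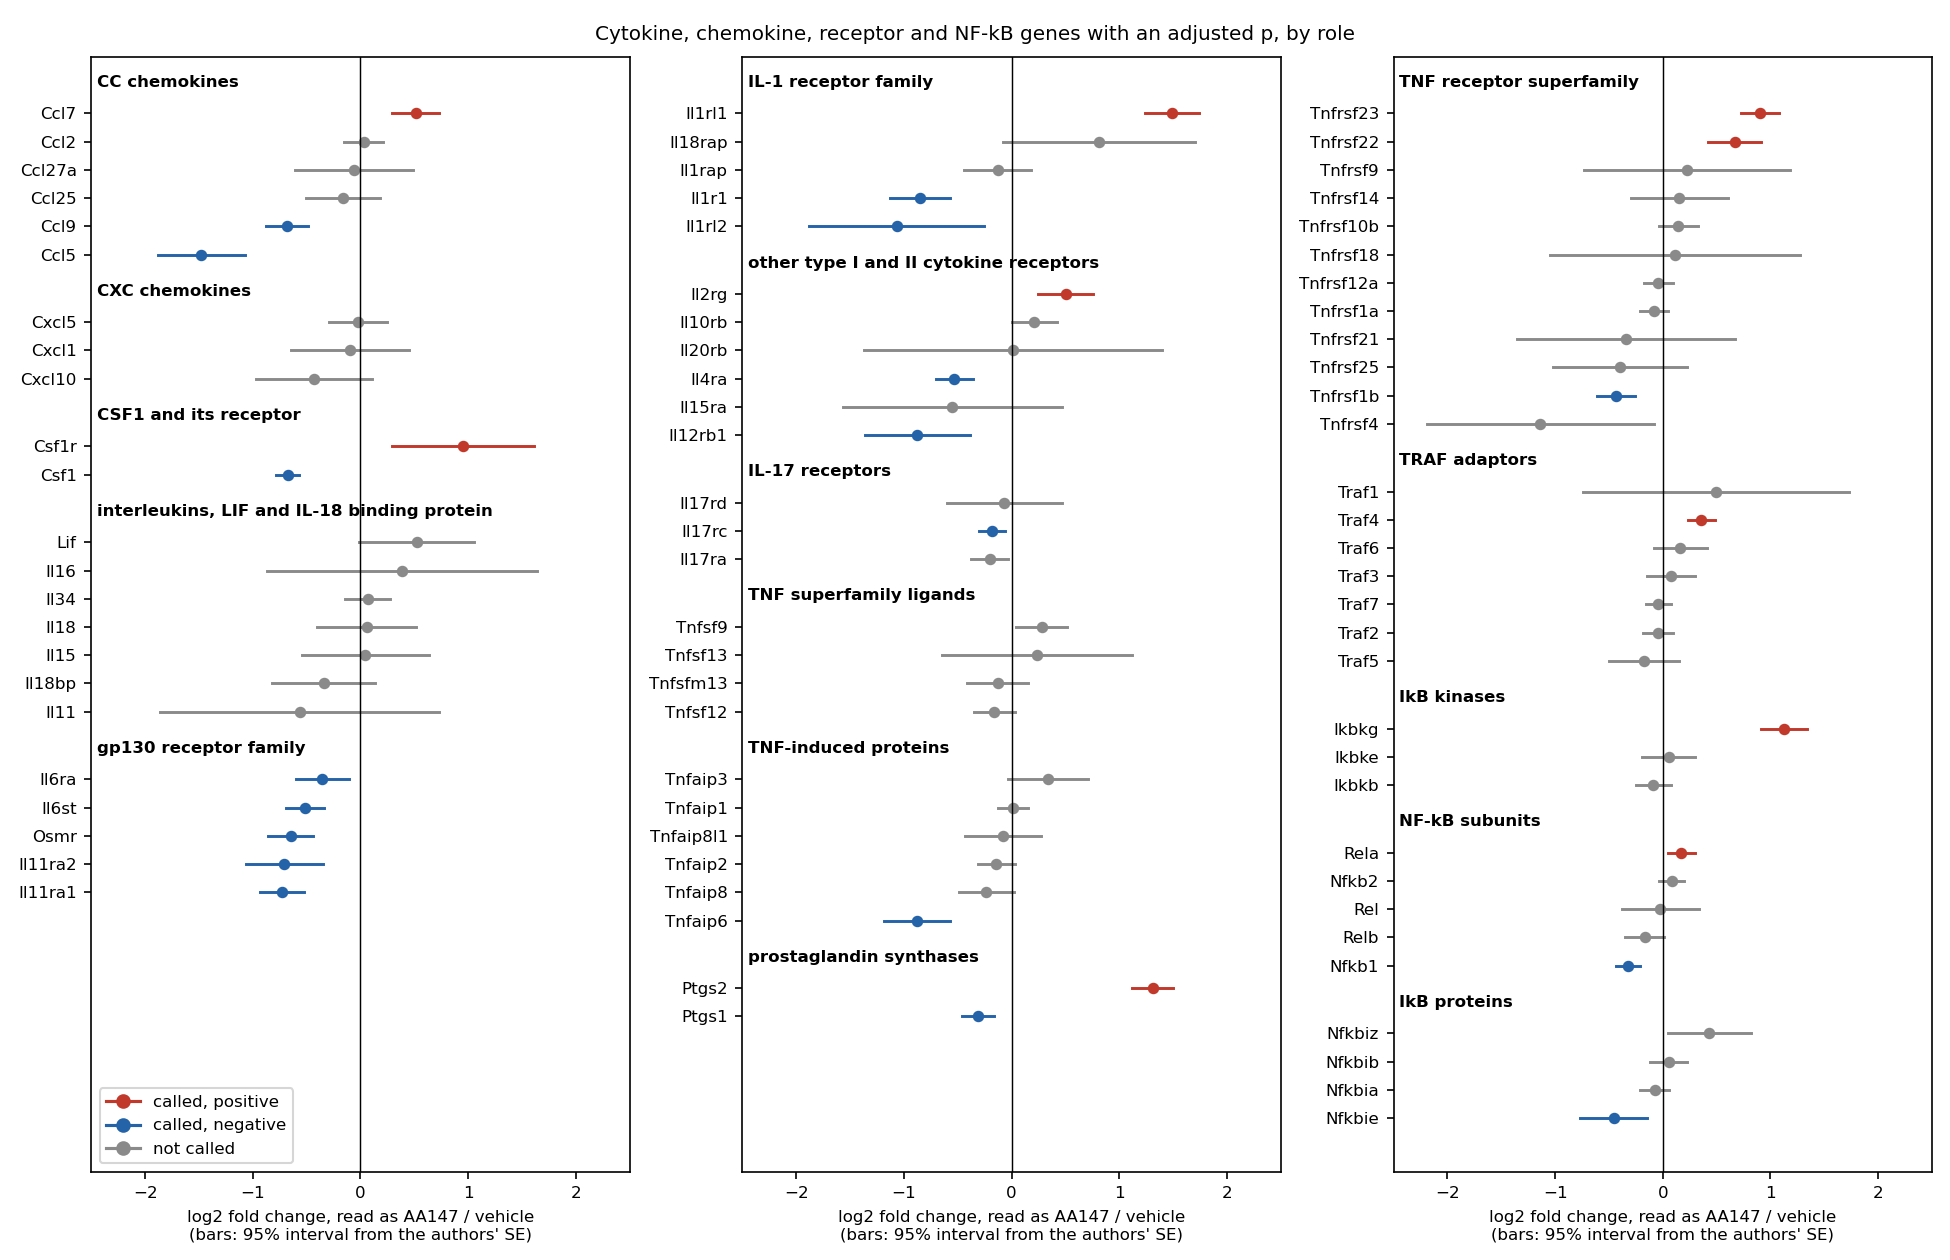
Log2 fold change (x axis, read as AA147 over vehicle) of 80 of the 82 members with an adjusted p, in panels by role, without those whose function lies outside these families, with bars of 95% intervals from the authors' SE. Red marks the 10 positive calls, blue the 18 negative calls and grey the members not called; all 5 gp130 receptor genes lie below 0.

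The cell line was also read against markers of neurons, fibroblasts, astrocytes, and macrophages or microglia. Of 12 markers of hippocampal neurons, 5 were in the authors' deposited table, with means of 1653 for Dlg4, 1199 for Tubb3, 562 for Syn1, 10.6 for Camk2a and 3.93 for Slc17a7, and the other 7, Rbfox3 and Map2 among them, were not analysed here. Of the 4 neuron markers with an adjusted p, Tubb3 rose (log2 fold change 0.43, SE 0.092, adjusted p = 5.67e-05) and the other 3 were not called, and the summed implied level of the list was 3316 in vehicle and 3540 in AA147. Of 8 fibroblast markers, 7 were in the table, with means of 254004 for Col1a2 and 139176 for Col1a1. Of the 7 fibroblast markers, 6 fell (median of the 7 on the log2 scale -0.97), and the summed implied level of the list was 608217 in vehicle and 275680 in AA147. Of 6 astrocyte markers, 3 were in the table, with a summed implied level of 1353 in vehicle and 560 in AA147. Nearly all of it was Slc1a3, a glutamate transporter, which went from 1318 to 537 (log2 fold change -1.30, SE 0.089, adjusted p = 2.39e-45), while Aldh1l1 had a mean of 27.4 and Slc1a2 of 1.62. Of 10 macrophage or microglia markers, 3 were in the table, with a summed implied level of 181 in vehicle and 438 in AA147. That rise came from Cd68, a lysosomal glycoprotein, at a mean of 284 and a log2 fold change of 1.5 (SE 0.16, adjusted p = 2.41e-18). Lyz2 had a log2 fold change of -0.90 at a mean of 23.5 (adjusted p = 0.171 by DESeq2). Itgam had -0.51 at a mean of 1.71 and no adjusted p. The remaining 7, including Ptprc and Aif1, were not analysed here. The part of these shifts in the results below was not tested.

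The start regions of the members were read for short motifs, to place them beside the fold changes. RefSeq windows on build GRCm38.p6, from 250 bases before to 50 bases after an annotated start, were found for 74 members, 22 of them called. No window was found for the called members Ccl5, Ccl7, Csf1r, Il12rb1, Nfkb1 and Tnfrsf22, so counts of matches leave these out. The motifs were the kappaB consensus, bound by NF-kB, the antioxidant response element (ARE, TGACNNNGC), bound by NRF2, the STAT element TTCNNNGAA, and the cyclic AMP response element (CRE, TGACGT), whose letters are also part of sites described for ATF6. The ARE and CRE were searched on both strands, and the STAT element reads the same on both. A gene counted when any of its windows held the motif. The kappaB consensus was read as GGGRNNYYCC (R is A or G, Y is C or T) on the strand of the gene only. Its counts therefore miss matches on the other strand. On the strand of the gene, the kappaB consensus was found for 15 of 74 members (20.3%), beside 6.72% of the 27025 genes with a window. On the same strand, 1 of the 22 called members held it (4.55%), beside 14 of the 52 members not called (26.9%). No test was run on this difference. Windows of the called members Csf1, Ccl9, Il4ra and Il1r1 hold it on the other strand, which was not counted for any gene. These shares therefore do not compare all matches. The ARE letters were present for 25.7% of members and 14% of genes, the STAT element for 10.8% and 9.55%, and the CRE for 13.5% and 8.37%. Among the 22 called members, the ARE was present for 3 (13.6%), Il1rl1 and Ikbkg, which rose, and Il4ra, which fell and holds it at positions -60 to -52 counted from the annotated start as 0. The CRE was also present for 3 (13.6%) and the STAT element for 2 (9.09%). ARE and CRE matches overlapped in 223 windows of the genome, none of them of a called member. A match is a run of letters and no measured binding.

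CC chemokines attract monocytes, T cells and other leukocytes, and 3 of the 6 with an adjusted p were called. Ccl5 encodes RANTES, which draws T cells and monocytes. Its implied average was 227 in vehicle and 81.4 in AA147. This was a 2.78-fold lower level (log2 fold change -1.48, SE 0.21, adjusted p = 4.8e-11 by DESeq2 in the authors' deposited table), the strongest decrease among the called members. Ccl9, a ligand of the chemokine receptor CCR1, went from 1854 to 1158 (log2 fold change -0.68, SE 0.10, adjusted p = 4.83e-10). Ccl7, which attracts monocytes through CCR2, went the other way, from 427 to 610 (log2 fold change 0.51, SE 0.11, adjusted p = 6.29e-05). Ccl2, the best known monocyte attractant and the direct neighbour of Ccl7, had a higher mean of 894 and a log2 fold change of 0.03 with an interval from -0.15 to 0.21 (adjusted p = 0.880). A change of the size seen for Ccl7 lies outside that interval; the difference between the 2 genes was not tested. Ccl25 (mean 217, log2 fold change -0.16) and Ccl27a (mean 69.4, -0.06) were not called either. Ccl8 had a log2 fold change of 1.70 at a mean of 4.94 and no adjusted p, and Ccl6, Ccl27b and Ccl28 also had none.

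The CXC chemokines, which act mainly on neutrophils and activated T cells, had 3 members with an adjusted p and 0 calls at adjusted or unadjusted p under 0.05 in the DESeq2 results. Cxcl5, the most abundant with a mean of 405, had a log2 fold change of -0.02 and an interval from -0.29 to 0.25. Cxcl1 had a mean of 58.8 and a log2 fold change of -0.10. Cxcl10, an interferon-induced attractant of T cells, had a mean of 80.8 and a log2 fold change of -0.43 with an interval from -0.97 to 0.11 (adjusted p = 0.294). The receptors Ccr7 (mean 2.36, log2 fold change -1.31) and Ccr10 (mean 1.99, -2.38) were too low for an adjusted p.

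CSF1 is the growth factor that macrophages and microglia depend on, and Csf1 was the most abundant member, at the 98th percentile of the table by mean. Its implied average was 15361 in vehicle and 9612 in AA147, a 1.60-fold lower level (log2 fold change -0.68, SE 0.056, adjusted p = 2.66e-31). Per kilobase of transcript, Csf1 had a level of 2975 normalized counts per kilobase beside a median of 188 over 14195 genes of the table, above every other member except Tnfrsf12a, whose exons overlap another gene. Csf1r, its receptor, went from an implied 32.8 to 63.3 (log2 fold change 0.95, SE 0.34, adjusted p = 0.0278), and its level was only 7.94 normalized counts per kilobase. Of the exonic bases of Csf1r, 19.8% overlap those of Hmgxb3 on the opposite strand, a gene with a mean of 2014 and a log2 fold change of 0.16 (adjusted p = 0.120). In a non-stranded library, reads of the 2 genes there cannot be told apart. Beside Csf1r, the macrophage markers in the table had a summed implied level of 181 in vehicle and 438 in AA147. Only Cd68 rose among them, while Lyz2 (log2 fold change -0.90) and Itgam (-0.51) had negative values and were not called. The part of these markers in the Csf1r value was not tested. Il34 encodes the other ligand of the CSF1 receptor, had a mean of 573 and a log2 fold change of 0.07 with an interval from -0.14 to 0.28, and was not called.

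Interleukins themselves were sparse. Of 9 genes for interleukins, LIF and the interleukin 18 binding protein, 7 had an adjusted p, 0 were called and 0 had an unadjusted p under 0.05 in the DESeq2 results. Il34 was the most abundant of these, and Il18 had a mean of 102. Lif, a gp130 ligand, had a mean of 79.6 and a log2 fold change of 0.52 with an interval from -0.01 to 1.06 (adjusted p = 0.177). Il6 had a mean of 2.58 and Il11 of 10.9, both near the low end of the table. Il17b, with a log2 fold change of 2.25 at a mean of 1.96, had no adjusted p.

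The gp130 receptor group showed the most uniform change of any role. All 5 of its members with an adjusted p fell, with log2 fold changes from -0.73 to -0.35 and a median of -0.65, beside the median of 0.01 over all genes tested and a negative call rate of 11.1%. Il6st, which encodes the shared chain gp130, went from an implied 12441 in vehicle to 8707 in AA147 (log2 fold change -0.51, SE 0.088, adjusted p = 1.74e-07). Its SE was 1.45 times the median of genes of like mean, the highest such ratio among members with a mean of at least 100. Osmr, the private chain for oncostatin M, went from 692 to 441 (log2 fold change -0.65, SE 0.11, adjusted p = 2.54e-08). Il11ra1, the receptor for interleukin 11, went from 1107 to 669 (log2 fold change -0.73, SE 0.10, adjusted p = 1.15e-10). Its near copy Il11ra2 went from 193 to 118 (log2 fold change -0.71, SE 0.18, adjusted p = 0.00115). These 2 transcripts are 99.0% identical over 1299 bases, which is all of the canonical Il11ra2 transcript, so reads may have been split between them and their 2 values are not independent. Il6ra, the interleukin 6 receptor chain, changed least, from 440 to 344 (log2 fold change -0.35, SE 0.13, adjusted p = 0.0284). Lifr (mean 2.65) and Il27ra (mean 6.99) had no adjusted p. Levels per kilobase placed the shared chain above its private partners: Il6st had 1218 normalized counts per kilobase, Il11ra1 430, Il11ra2 120, Osmr 103 and Il6ra 45.4. The start region of Il6st is shown as the leading member of the group, in lower case throughout because none of the 4 motifs was found in it, at chr13:112463820-112464119 of GRCm38.p6 on the plus strand.
Il6st: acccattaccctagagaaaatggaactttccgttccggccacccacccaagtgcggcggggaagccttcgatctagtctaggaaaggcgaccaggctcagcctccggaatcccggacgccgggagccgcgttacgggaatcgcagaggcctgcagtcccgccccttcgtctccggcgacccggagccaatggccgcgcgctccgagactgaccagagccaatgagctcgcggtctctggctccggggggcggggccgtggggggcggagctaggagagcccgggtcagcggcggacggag

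The JAK-STAT genes downstream of these receptors were taken from a list of 37, of which 32 had an adjusted p. Of these, 3 rose and 5 fell (25.0% called, near the 20.2% of all genes), with a median log2 fold change of -0.06. Cebpd, a transcription factor gene induced by STAT3, went from an implied 1957 to 911 (log2 fold change -1.10, SE 0.082, adjusted p = 2.07e-38). Socs3, the STAT3-induced feedback inhibitor of gp130, went from 765 to 486 (log2 fold change -0.65, SE 0.11, adjusted p = 7.67e-08). Cish, a STAT5-induced inhibitor, had a log2 fold change of -0.80, Cebpb of -0.48 and Stat6 of -0.22. The increases were Pim1, a kinase gene that is also a STAT target, at 0.73, Jak2 at 0.39 and Pias4, an inhibitor of STAT activity, at 0.25. The list therefore did not move in 1 direction.

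Interleukin 1 receptor genes lie side by side in the genome and went in opposite directions. Il1rl1 encodes ST2, the receptor for interleukin 33, and also a secreted form that acts as a decoy. Its implied average was 374 in vehicle and 1049 in AA147, a 2.81-fold higher level and the strongest increase among the called members (log2 fold change 1.49, SE 0.13, adjusted p = 7.7e-29). The 2 forms of the protein cannot be told apart in a table with 1 value per gene. Il1r1, the signalling receptor for interleukin 1, went from 468 to 260 (log2 fold change -0.85, SE 0.14, adjusted p = 9.81e-08). Il1rl2, the interleukin 36 receptor, was low and went from 51.1 to 24.4 (log2 fold change -1.07, SE 0.41, adjusted p = 0.0485). Its call was lost when p-values were adjusted over all genes with a p. Il1rap, the partner chain that all 3 share, had a mean of 234 and a log2 fold change of -0.13 with an interval from -0.44 to 0.18. Il18rap had a mean of 25.1 and a log2 fold change of 0.81 (adjusted p = 0.215). In RefSeq order, Il1r1, Il1rl2 and Il1rl1 are consecutive among the genes of the table; the flanking gene Map4k4 had a log2 fold change of 0.29 and was called, and Mfsd9 had 0.36 (adjusted p = 0.0663). These flanking genes were chosen after their members' values were seen. Il1rl1 has 2 windows in the RefSeq table, and the one at chr1:40439379-40439678 of GRCm38.p6, plus strand, is shown because it holds an ARE match at positions -88 to -80 and a CRE match at -34 to -29, counted with the annotated start as 0. Capitals mark both matches.
Il1rl1: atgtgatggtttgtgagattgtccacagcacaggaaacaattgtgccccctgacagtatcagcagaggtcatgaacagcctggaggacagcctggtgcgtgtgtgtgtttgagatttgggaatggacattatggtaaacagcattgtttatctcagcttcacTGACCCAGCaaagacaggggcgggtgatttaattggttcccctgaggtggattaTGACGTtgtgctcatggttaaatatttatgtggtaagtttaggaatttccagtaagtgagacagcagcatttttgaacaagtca

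**Figure D2:**
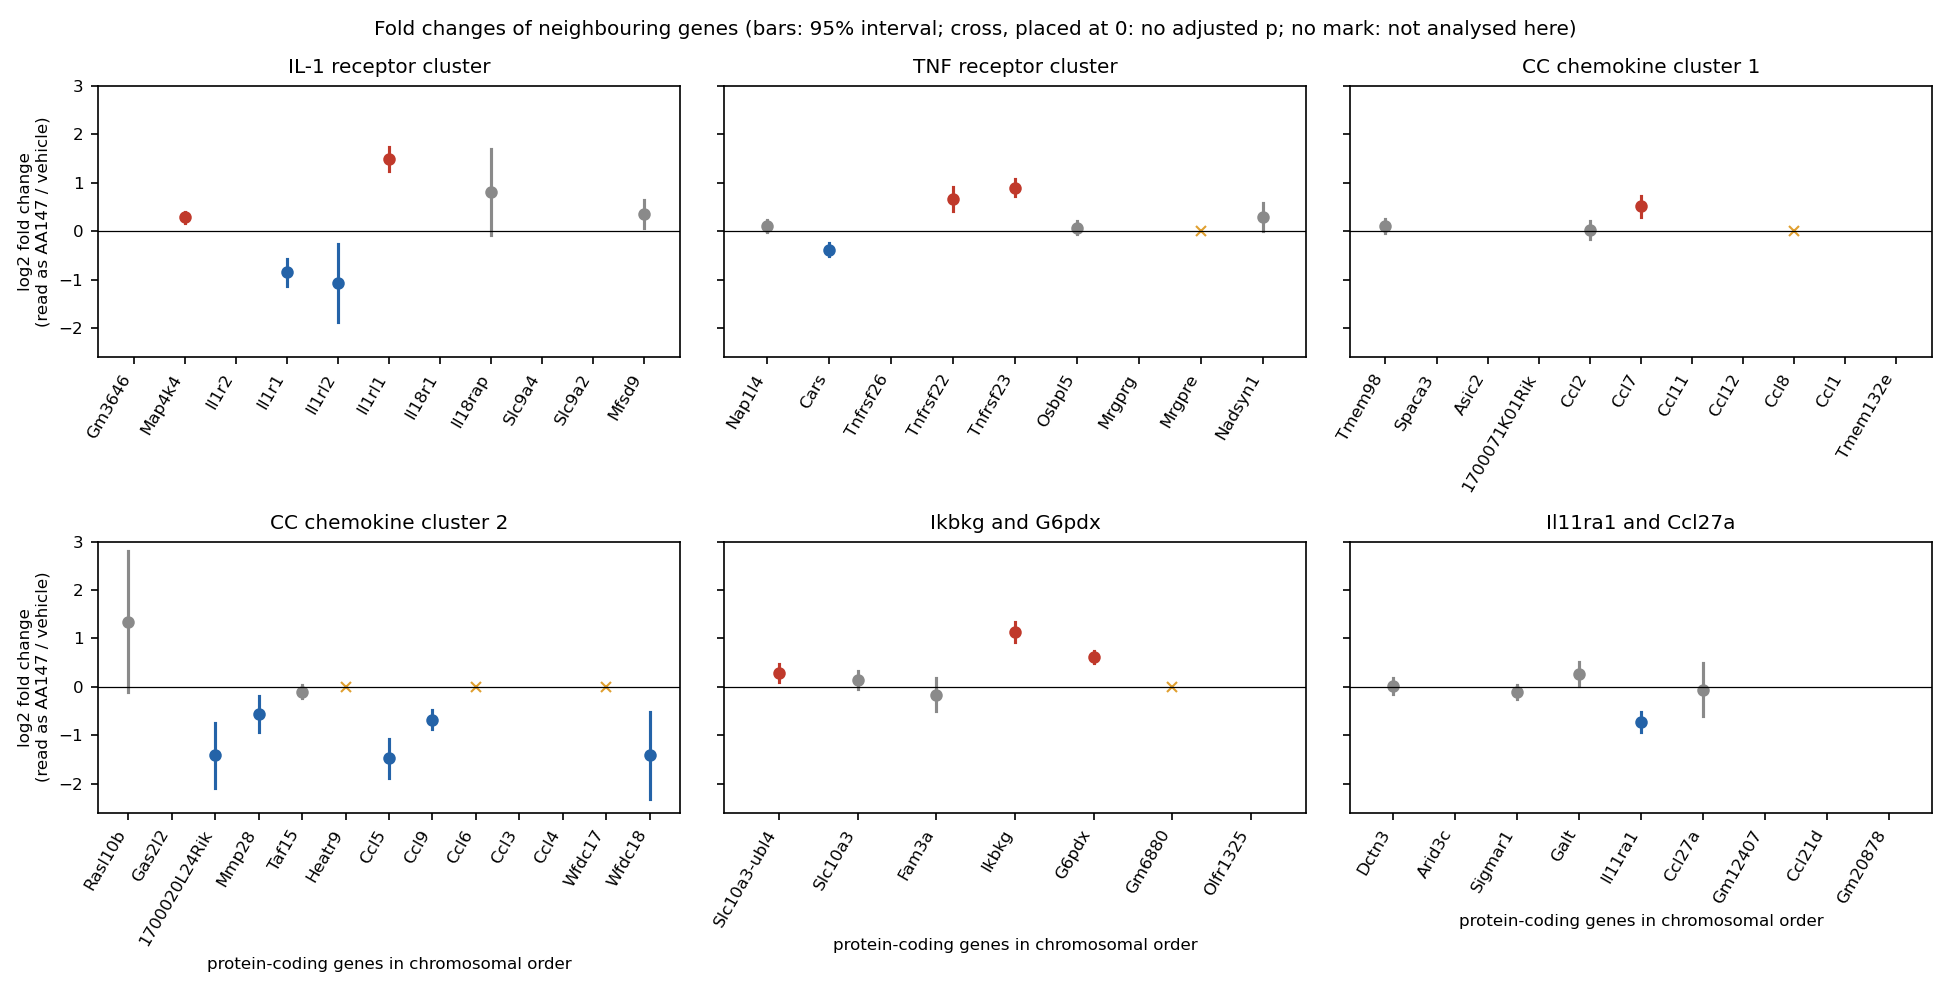
Log2 fold change (y axis, read as AA147 over vehicle) of protein-coding genes in chromosomal order at 6 loci that hold called members, with bars of 95% intervals from the authors' SE. Crosses sit at 0 for genes without an adjusted p, and genes with no mark were not analysed here; at the interleukin 1 receptor locus Il1r1 and Il1rl2 lie below 0 and Il1rl1 above.

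Of 26 signalling genes of interleukin 1 and Toll-like receptors with an adjusted p, 1 rose and 2 fell (11.5% called, beside 20.2% of all genes, a difference that was not tested), with a median log2 fold change of 0.04. Peli1, a ubiquitin ligase that modifies IRAK kinases, rose by 0.51 on the log2 scale, while Ticam1, an adaptor of Toll-like receptors, had -0.30 and Irak1 had -0.19.

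The other interleukin receptors gave 3 calls among 6 with an adjusted p. Il4ra, the receptor for interleukins 4 and 13, went from an implied 1187 to 821 (log2 fold change -0.53, SE 0.087, adjusted p = 3.34e-08). Il12rb1, a chain of the interleukin 12 and 23 receptors, went from 104 to 56.5 (log2 fold change -0.87, SE 0.25, adjusted p = 0.00397). Il2rg, the common gamma chain of lymphocyte cytokine receptors, went up from 388 to 550 (log2 fold change 0.50, SE 0.13, adjusted p = 0.00123). Il4ra and Il2rg are partners in 1 receptor complex and had opposite signs. Il10rb, with a mean of 534, had a log2 fold change of 0.21 (adjusted p = 0.165). Among the interleukin 17 receptors, Il17rc was abundant and slightly lower, at 5814 and 5117 (log2 fold change -0.18, SE 0.060, adjusted p = 0.015). Its partner Il17ra had a log2 fold change of -0.21 at an adjusted p of 0.0914, a like size with a wider interval. Il2rb had a log2 fold change of -2.61 at a mean of 2.31 and no adjusted p.

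In the TNF receptor superfamily, 2 of the 12 members with an adjusted p rose and 1 fell (25.0% called, near the 20.2% of all genes). Tnfrsf23 and Tnfrsf22 encode mouse decoy receptors for the death ligand TRAIL, which bind it without passing a death signal. Tnfrsf23 went from an implied 1115 to 2082 (log2 fold change 0.90, SE 0.091, adjusted p = 5.99e-21). Tnfrsf22 went from 364 to 578 (log2 fold change 0.67, SE 0.12, adjusted p = 2.05e-06). The 2 transcripts are 91.9% identical over 1451 bases, or 98.3% of the canonical Tnfrsf23 transcript, so part of their reads could have been assigned to either gene. They are neighbours in the genome, and of the flanking genes Cars had a log2 fold change of -0.38 and was called while Osbpl5 had 0.07. Tnfrsf10b, the death receptor for the same ligand, had a mean of 953 and a log2 fold change of 0.15 with an interval from -0.04 to 0.33. The window of Tnfrsf23, at chr7:143685826-143686125 of GRCm38.p6 on the minus strand, is shown because it holds a CRE match, in capitals, at positions -185 to -180.
Tnfrsf23: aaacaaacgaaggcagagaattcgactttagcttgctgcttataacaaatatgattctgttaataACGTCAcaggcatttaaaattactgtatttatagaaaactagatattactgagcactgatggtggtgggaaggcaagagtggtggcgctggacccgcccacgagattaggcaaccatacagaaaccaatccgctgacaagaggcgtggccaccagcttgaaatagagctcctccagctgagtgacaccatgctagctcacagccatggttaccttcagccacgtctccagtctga

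The 2 receptors for TNF itself differed in value. Tnfrsf1b, the receptor that lacks a death domain, went from an implied 1801 to 1331 (log2 fold change -0.44, SE 0.091, adjusted p = 3.15e-05). Tnfrsf1a, the more widely expressed one, had a mean of 3294 and a log2 fold change of -0.08 with an interval from -0.21 to 0.05. Tnfrsf12a, the receptor for the ligand TWEAK, had the highest level per kilobase of all members, at 4212 normalized counts, and a log2 fold change of -0.04. All of its 1965 exonic bases overlap those of Hcfc1r1 on the opposite strand, a gene with a mean of 2079 and a log2 fold change of -0.65 (adjusted p = 8.81e-10), so neither the level nor the fold change of Tnfrsf12a can be assigned to it alone. Its ligand gene Tnfsf12 had a mean of 986 and a log2 fold change of -0.16 (adjusted p = 0.259). Tnfrsf4 had a log2 fold change of -1.14 at a mean of 22.8 and was not called (adjusted p = 0.125). No TNF ligand was called among the 4 with an adjusted p. Of these, Tnfsf9, the ligand of the receptor 4-1BB, was closest, with a log2 fold change of 0.28 at an adjusted p of 0.0832 and an unadjusted p under 0.05 by DESeq2. Tnfsf18 (mean 1.75, log2 fold change 3.16) had no adjusted p.

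**Figure D3:**
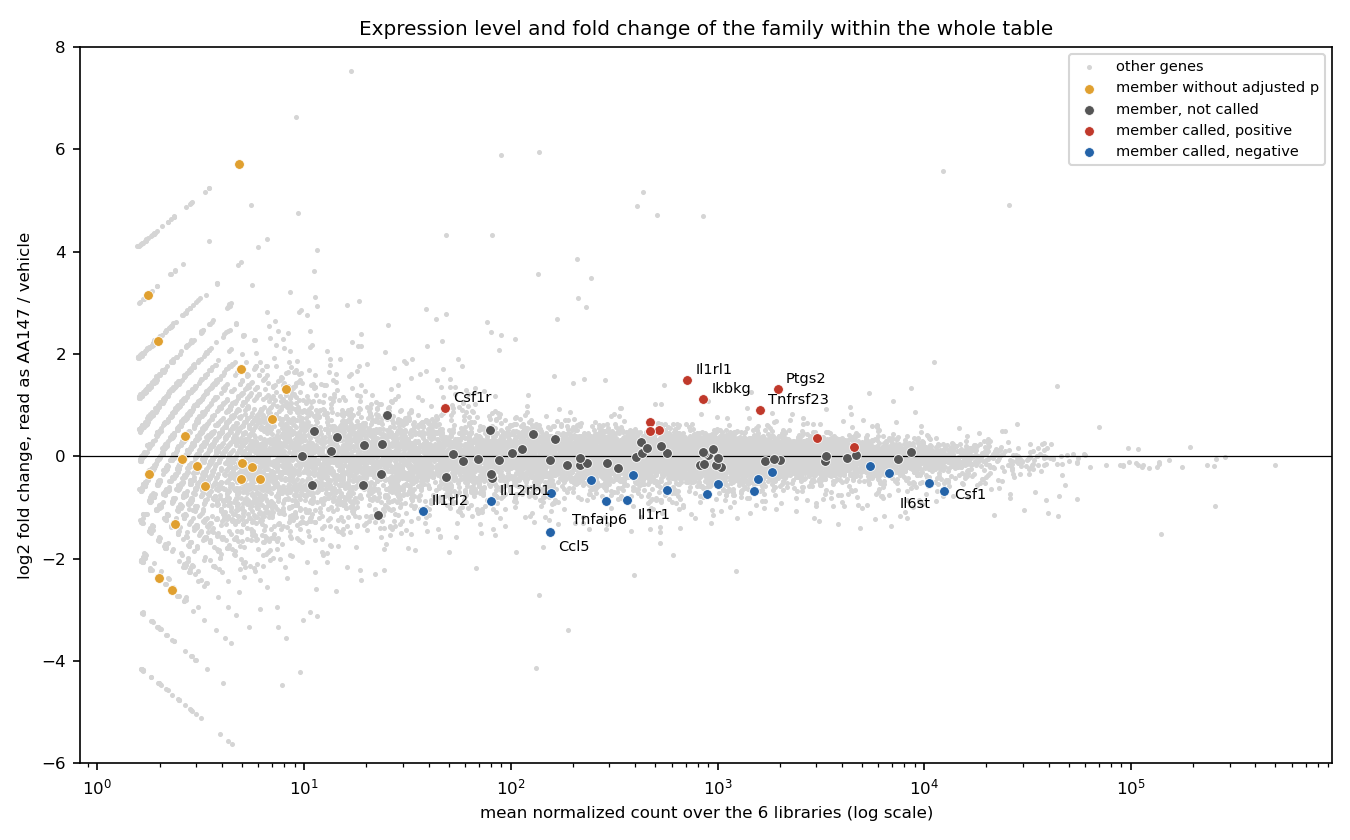
Log2 fold change (y axis, read as AA147 over vehicle) against mean normalized count over the 6 libraries (x axis, log scale) for every gene of the table in grey, with members coloured by call. The members without an adjusted p, in orange, all have means of at most 8.16, and Csf1 and Il6st lie furthest right among the members.

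TRAF adaptors link both receptor families to the kinases. Of 7 with an adjusted p, 1 was called (14.3%, beside 20.2% of all genes). It was Traf4, an adaptor of cell junctions and interleukin 17 signalling, at 2652 in vehicle and 3395 in AA147 (log2 fold change 0.36, SE 0.064, adjusted p = 7.08e-07). Traf7 was the most abundant, with a mean of 7470, and had a log2 fold change of -0.04 with an interval from -0.16 to 0.07. Traf2, the adaptor of the TNF receptors, had -0.05, and Traf6, that of the interleukin 1 receptors, had 0.16 with an interval from -0.09 to 0.41. The list of the TNF receptor complex and its ubiquitin regulators had 24 genes, of which 2 rose and 2 fell (16.7% called, near the 20.2% of all genes), with a median log2 fold change of 0.00. The decreases were Sharpin at -0.30 and Rbck1 at -0.23, both subunits of the linear ubiquitin ligase. The increases were Chuk, which encodes the kinase IKK alpha, at 0.20, and Tax1bp1, an adaptor of the inhibitor A20, at 0.18.

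Ikbkg encodes NEMO, the regulatory subunit of the IkB kinase complex. Its implied average was 537 in vehicle and 1172 in AA147, a 2.18-fold higher level (log2 fold change 1.13, SE 0.11, adjusted p = 7.54e-24). The catalytic subunit gene Ikbkb had a mean of 1702 and a log2 fold change of -0.09 with an interval from -0.25 to 0.07, and Ikbke had 0.06. Ikbkg shares 526 exonic bases with G6pdx on the opposite strand, which are 3.85% of its own exonic bases and 8.13% of those of G6pdx. G6pdx encodes glucose 6-phosphate dehydrogenase, the entry enzyme of the pentose phosphate pathway and a known NRF2 target. It had a mean of 5931 and went from 4689 to 7174 (log2 fold change 0.61, SE 0.064, adjusted p = 1.15e-19). The libraries were non-stranded, so reads from the shared bases cannot be assigned to 1 of the 2 genes, and the part of G6pdx in the Ikbkg value was not tested. Fam3a, which shares 204 bases with Ikbkg, had a log2 fold change of -0.16 and was not called. Ikbkg has 4 windows in the RefSeq table. The one at chrX:74424362-74424661 of GRCm38.p6, plus strand, is shown because it holds the reverse complement of an ARE, in capitals, at positions -38 to -30.
Ikbkg: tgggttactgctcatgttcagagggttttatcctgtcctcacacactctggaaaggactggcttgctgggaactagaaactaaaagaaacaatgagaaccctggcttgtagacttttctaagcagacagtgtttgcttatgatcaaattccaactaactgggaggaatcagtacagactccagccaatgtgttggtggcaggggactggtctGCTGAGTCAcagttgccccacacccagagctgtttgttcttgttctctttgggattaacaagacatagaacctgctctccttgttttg

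All 5 NF-kB subunit genes had a mean of over 200, and their changes were small. Nfkb1, which encodes p105 and its product p50, went from an implied 7527 to 6006 (log2 fold change -0.33, SE 0.057, adjusted p = 4.06e-07). Rela, the main activating subunit p65, went from 4283 to 4830 (log2 fold change 0.17, SE 0.064, adjusted p = 0.0373), the smallest called change among the members, and 1 whose call was lost when fold changes were centred on the median gene, at 0.16. Nfkb2, the most abundant with a mean of 8602, had 0.08 with an interval from -0.03 to 0.20, and 24.5% of its exonic bases overlap those of Psd on the opposite strand (log2 fold change -0.41). Relb had -0.17 (adjusted p = 0.207) and Rel had -0.02. Among the IkB proteins, Nfkbie, which encodes IkB epsilon, went from 281 to 205 (log2 fold change -0.46, SE 0.16, adjusted p = 0.0241). Nfkbia, the IkB alpha gene that NF-kB itself induces, had a mean of 1998 and a log2 fold change of -0.08 with an interval from -0.21 to 0.06. Nfkbiz, a nuclear IkB protein, had 0.43 (adjusted p = 0.104). Among the 22 called members with a window, Nfkbie alone held a kappaB match on the strand of the gene, the only strand searched for it. The match, in capitals, lies at positions -106 to -97 of the window chr17:45555450-45555749 of GRCm38.p6 on the plus strand.
Nfkbie: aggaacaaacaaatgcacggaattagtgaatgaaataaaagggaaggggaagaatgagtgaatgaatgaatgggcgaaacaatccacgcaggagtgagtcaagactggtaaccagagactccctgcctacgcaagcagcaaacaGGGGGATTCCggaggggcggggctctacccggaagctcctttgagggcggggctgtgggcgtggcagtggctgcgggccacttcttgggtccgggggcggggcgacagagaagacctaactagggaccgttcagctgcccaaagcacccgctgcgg

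Of the 6 TNF-induced proteins, 1 was called (16.7%, near the 20.2% of all genes). Tnfaip6 encodes TSG-6, a secreted protein that binds hyaluronan and dampens inflammation, and went from an implied 373 to 202 (log2 fold change -0.88, SE 0.16, adjusted p = 4.87e-07). Tnfaip3 encodes A20, a deubiquitinase and NF-kB-induced inhibitor, and had a mean of 163 and a log2 fold change of 0.34 with an interval from -0.04 to 0.71 (adjusted p = 0.220). Tnfaip1 was the most abundant of the role, with a mean of 3357 and a log2 fold change of 0.01, and 20.7% of its exonic bases overlap those of Poldip2 on the opposite strand (log2 fold change -0.05).

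Known NF-kB target genes outside the members were called often and in both directions. Of 24 with an adjusted p, 8 rose and 6 fell (58.3% called, beside 20.2% of all genes), with a median log2 fold change of 0.04. Among those with a mean of at least 100, 14 of 21 were called (66.7%), beside 23.8% of all such genes. The list was chosen with earlier results of these data known, so its share of calls is no independent measure, and it was not tested. The largest decrease was that of Plau, the urokinase gene, from an implied 557 to 202 (log2 fold change -1.46). Vcam1, a leukocyte adhesion molecule, went from 5431 to 2763 (log2 fold change -0.98, SE 0.063, adjusted p = 4.29e-52). The other decreases were Dram1 at -0.59, Ier2 at -0.35, Tapbp at -0.34 and Bcl2l1 at -0.25. The increases were led by Ier3, an immediate early gene, at 0.64 and Fth1, the ferritin heavy chain, at 0.58. They also included Junb at 0.42, Traf3ip2 at 0.39, Gadd45b at 0.35, Hmox1 at 0.30 and Cd44 at 0.20. Fth1 and Hmox1 are also known NRF2 targets. Chemokine scavenging receptors and modulators had 9 genes with an adjusted p, of which 0 rose and 2 fell (22.2% called, near the background), the proteoglycan genes Sdc4 at -0.36 and Sdc1 at -0.25.

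**Figure D4:**
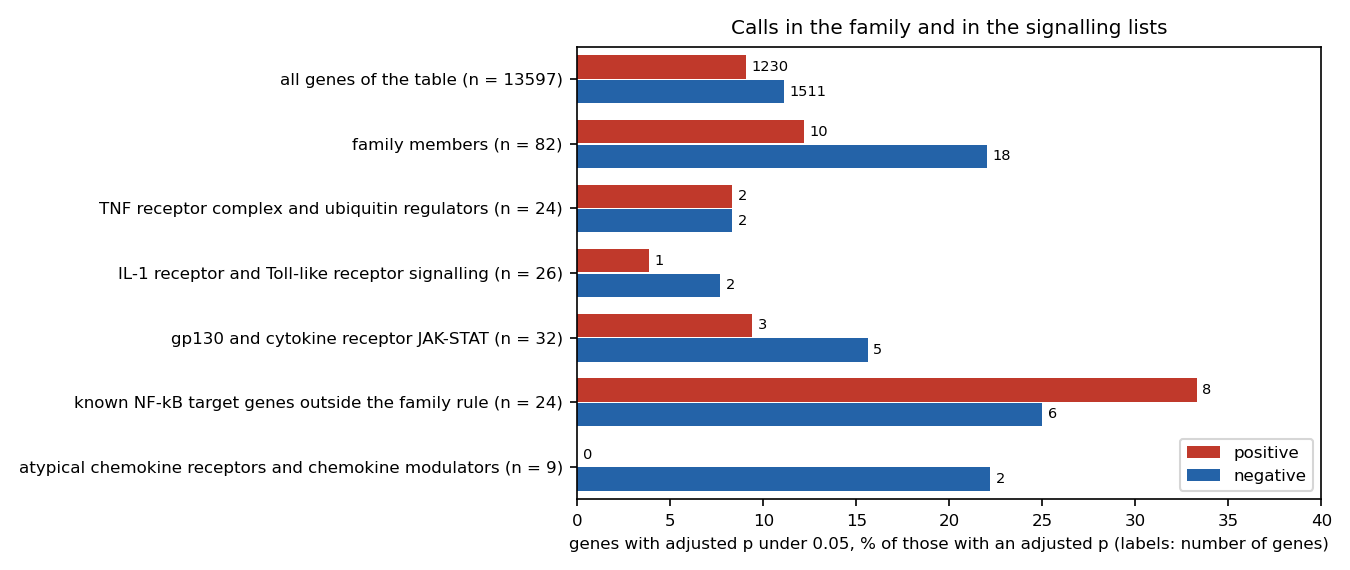
Percent of genes called (x axis) as positive (red) and negative (blue) among all genes tested, the members and 5 pathway lists, with the number of genes at each bar. The NF-kB target list has 8 positive and 6 negative calls of 24, while the TNF receptor complex list has 2 and 2 of 24.

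The prostaglandin synthases convert arachidonic acid to the precursor of all prostaglandins, and both were called with opposite signs. Ptgs2 encodes the inducible enzyme COX-2. Its implied average was 1123 in vehicle and 2782 in AA147, a 2.48-fold higher level (log2 fold change 1.31, SE 0.095, adjusted p = 1.94e-40), with the smallest adjusted p of the members. Ptgs1, the constitutive enzyme COX-1, went from 2029 to 1635 (log2 fold change -0.31, SE 0.076, adjusted p = 0.000574). The summed implied level of the 2 genes was 3152 in vehicle and 4417 in AA147. Ptgs2 shares 476 exonic bases, 9.29% of its own, with the opposite-strand gene Ptgs2os, which had a mean of 110 and a log2 fold change of 0.24 (adjusted p = 0.528). The window of Ptgs2, at chr1:150099781-150100080 of GRCm38.p6 on the plus strand, is shown for the CRE match in capitals at positions 12 to 17 after the annotated start.
Ptgs2: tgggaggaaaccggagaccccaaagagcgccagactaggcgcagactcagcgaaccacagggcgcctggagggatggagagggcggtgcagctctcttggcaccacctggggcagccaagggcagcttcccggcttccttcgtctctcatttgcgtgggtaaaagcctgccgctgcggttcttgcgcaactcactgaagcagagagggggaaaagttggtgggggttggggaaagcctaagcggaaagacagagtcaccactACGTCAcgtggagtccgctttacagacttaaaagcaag

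The 3 called members with a CRE match, Il1rl1, Ptgs2 and Tnfrsf23, all had positive fold changes. The other 7 members with a CRE match were not called, with log2 fold changes of -0.44 for Ccl27b, -0.10 for Cxcl1, -0.05 for Il6, -0.05 for Traf2, -0.02 for Rel, 0.01 for Tnfaip1 and 0.34 for Tnfaip3. The common sign of the called ones was noticed after their values were seen, and 19 called members with a window held no CRE match, 4 of them with a positive fold change and 15 with a negative one.

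**Figure D5:**
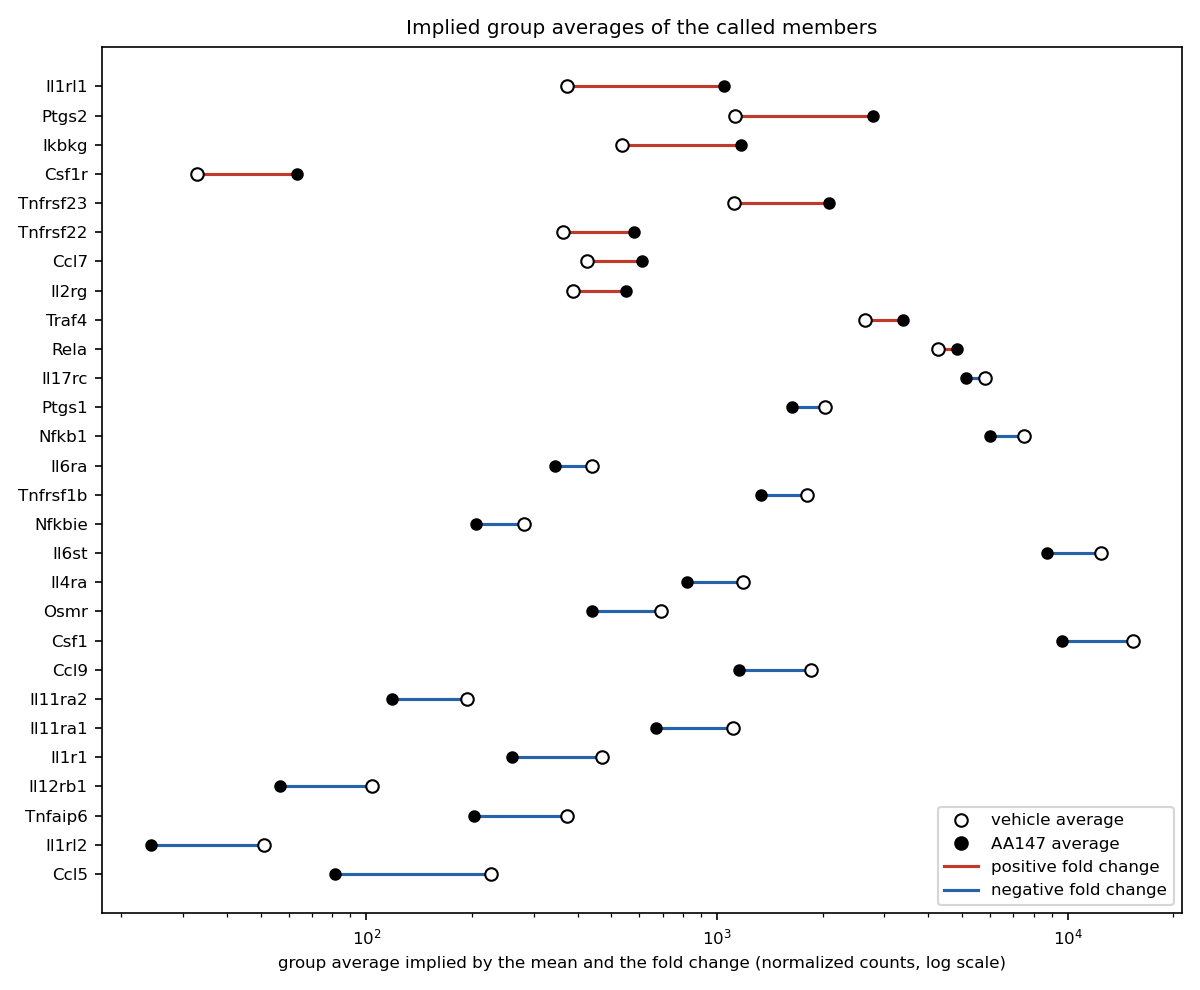
Group averages implied by the mean and the fold change (x axis, normalized counts, log scale) for the 28 called members, ordered by fold change, with open circles for vehicle and filled circles for AA147. Il1rl1 moves from 374 to 1049 at the top and Ccl5 from 227 to 81.4 at the bottom.

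How far the members without a call could have changed depended on their level. The 35 uncalled members with a mean of at least 100 had a median interval half-width of 0.21, and for 29 of them the whole interval lay within 0.5 of 0 on the log2 scale. The 19 uncalled members with a lower mean and an adjusted p had a median half-width of 0.89, and none had an interval within 0.5 of 0. The other 18 members had means from 1.75 to 8.16, no adjusted p, and 0 unadjusted p under 0.05 by DESeq2. The largest fold change among them, 5.72 for Il4i1, had an SE of 3.92, and 77.4% of its exonic bases overlap those of Tbc1d17. Tnfsf13os, an antisense transcript, had 1.31 at a mean of 8.16.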

How the data were processed

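HT22 mRNA was sequenced as non-stranded libraries, 3 for AA147 and 3 for vehicle, after column extraction, per the labels' protocols. Fold changes were made with DESeq2 on build mm9, per the submitters' processing notes, which give no version, and per the file headers. The aligner, counter, annotation and filters are not given in the sources used here. The authors deposited 1 table with 16472 genes. Its mean normalized count is a signal averaged over the 6 libraries by the authors. The authors deposited a log2 fold change with its SE, a Wald score that equalled their ratio (largest difference 3.06e-07), and a p-value with its Benjamini-Hochberg adjustment, which was recomputed over the 13597 genes that have one (largest difference 7.58e-07). No adjusted p was given for 2875 genes, all with a mean of at most 8.41. The table holds no counts per library, so no count test was run, the depth of each library is unknown, and precision rests on the authors' SE.

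Members were matched by symbol. The members and pathway lists were chosen with earlier results of these data known. Named genes were every called member, the most abundant member of each role, every member with a log2 fold change of at least 1 in size, and the 5 uncalled members with a mean of at least 100 nearest the threshold. Others were chosen after their values were seen. The values of 1 member and 1 gene of the NF-kB target list are not reported here. Group averages, 95% intervals from the SE and SE ratios to 201 genes of nearest mean were computed with Python 3.11.15, pandas 2.3.3, NumPy 2.4.6 and SciPy 1.17.1, and drawn with matplotlib 3.10.9. Canonical transcript lengths and exon overlaps came from GENCODE release M39 for GRCm39, with no coordinates used, and transcript identity from BLAST 2.17.0 (at least 90% over 200 bases). Start regions and gene order came from RefSeq for GRCm38.p6, independent of the mm9 counts. Levels per kilobase divide the mean by transcript length. The counting code was tested on simulated data.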

Additional observations from a re-analysis of the deposited data

How the results depend on the processing

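The count of 28 called members was 22 at an adjusted p under 0.01, 27 with p-values adjusted over all genes with a p, 25 with adjustment over genes with a mean of at least 100, 20 with a log2 fold change of at least 0.5 in size, and 27 after centring on the median of 0.01 of genes with a mean of at least 100. At an adjusted p under 0.01 the lost calls were Csf1r, Il17rc, Il1rl2, Il6ra, Nfkbie and Rela. Adjustment over all genes lost Il1rl2, and the limit on the mean took Csf1r, Il12rb1 and Il1rl2 out of the test. Centring ended the call of Rela, at 0.16 on the log2 scale, and of no other called member, and reversed none. In an alternative chosen after seeing the data, 26 members with an adjusted p were left out. They share exons with another gene of the table, or near-identical sequence over a longer stretch than the limit of 200 bases used elsewhere. Of the 56 that remained, 21 were called (37.5%). The positive calls dropped from 10 to 5 and the negative calls from 18 to 16, because Ikbkg, Ptgs2, Csf1r, Tnfrsf22, Tnfrsf23, Il11ra1 and Il11ra2 are among those left out. The median log2 fold change of the members ranged from -0.09 to -0.04 over its alternatives. No paired analysis was possible because the table holds no value per library. For the same reason edgeR's TMM normalization, a test without a filter on low counts, the replicate block and leaving out each replicate were not run, and no library could be checked on its own. Low levels limit the 18 members without an adjusted p and the 19 others with a mean under 100.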

Other observations

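Around Ccl5 and Ccl9, 3 further genes were called lower with AA147 in the authors' deposited table, and the nearest genes on the Ccl5 side were not among them. The other genes of the stretch with an adjusted p, Taf15 and Rasl10b, were not called. Over all genes tested, 11.1% were called negative. In RefSeq order on assembly GRCm38.p6, Mmp28, a secreted matrix metalloproteinase, had a mean of 151 and a log2 fold change of -0.56 (SE 0.19, adjusted p = 0.0178 by DESeq2). 1700020L24Rik had a mean of 44.4 and a log2 fold change of -1.41 (SE 0.34, adjusted p = 0.000442). Wfdc18, a whey acidic protein family gene on the other side, had a mean of 26.6 and a log2 fold change of -1.41 (SE 0.46, adjusted p = 0.0136). Taf15, which lies between Mmp28 and Ccl5 and encodes a general transcription protein, had a mean of 5679 and a log2 fold change of -0.10 with an interval from -0.24 to 0.04, and was not called. Heatr9, the direct neighbour of Ccl5, had a log2 fold change of 0.20 at a mean of 1.75 and no adjusted p. Rasl10b, beyond 1700020L24Rik, had a log2 fold change of 1.34 at a mean of 8.82 (adjusted p = 0.205). Ccl6 and Wfdc17 had no adjusted p. The stretch read here runs 6 genes to either side of Ccl5, further than at the other loci plotted, which brings in Wfdc18 and Rasl10b. The locus was chosen after the values of Ccl5 and Ccl9 were seen, and no test of the stretch as a whole was run.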
